A study of Homo sapiens with 9 samples.

Results

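The centromere and the kinetochore are described here through 36 genes, chosen by symbol as the proteins that build these structures, out of 44608 named entries in each count table. They fall into 14 genes of the constitutive centromere, 19 of the outer kinetochore and 3 that load CENPA onto centromeric chromatin. Of the 36 genes, 35 had enough reads to be tested, among 14815 tested genes, and SKA1 was listed at 0 in every library, which allows up to 0.156 to 0.200 CPM by counting error alone. Gene expression was measured by sequencing oligo-dT selected RNA of U2OS, a human osteosarcoma cell line. In siNFKB2 cells an siRNA against NFKB2 was transfected, in siRELB cells an siRNA against RELB, and in siNS cells a non-silencing siRNA. Each group had 3 libraries, the siRNA was at 75 nM with a lipid reagent in every group, and RNA was taken 48 h later. All groups therefore share the lipid, the transfection of some siRNA and the single cell line.

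A centromere is marked by nucleosomes that carry CENPA, a variant of histone H3, and a constitutive network of CENP proteins stays bound to them through the cell cycle. In mitosis the KNL1, MIS12 and NDC80 complexes assemble on that network, and NDC80 holds the ends of spindle microtubules. HJURP and the Mis18 complex place new CENPA after mitosis, and in many proliferating cells the messenger RNAs of these genes peak in late cell cycle phases. The product of NFKB2 is cut to p52, an NF-kB subunit, and RELB makes the protein that p52 pairs with in non-canonical NF-kB signalling.

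Total counts were 15011789 to 19279572 per library. NFKB2 averaged 25.5 ± 21.7 CPM, edgeR's counts relative to library size, in siNFKB2 cells and 108 ± 24.2 CPM in siNS cells (SD, n = 3 each; log2 -2.09, SE 0.564, adjusted p = 0.0210). In siNFKB2 replicates 1 to 3, 4.86%, 21.1% and 44.8% of the siNS mean was left. Whether the changes below follow this remaining NFKB2 level was not tested. RELB averaged 4.23 ± 1.40 CPM in siRELB cells and 27.2 ± 8.92 CPM in siNS cells (log2 -2.69, SE 0.369, adjusted p = 0.00881). These target calls were lost when some libraries were left out, NFKB2 without siNS replicate 2 or 3 or siNFKB2 replicate 2 (adjusted p of 0.0532, 0.0667 and 0.0936), and RELB without siNS replicate 3 or siRELB replicate 2 (0.0575 and 0.0591). Mitochondrial rRNA took 0.519% to 2.68% of counts in siNFKB2, 0.379% to 0.856% in siRELB and 0.406% to 1.33% in siNS libraries. Of 8 bone lineage markers 5 were tested, with a summed level of 565 to 624 CPM in siNFKB2, 878 to 1027 CPM in siRELB and 684 to 1101 CPM in siNS libraries. COL1A1 made up most of that sum. All 5 were called in siNFKB2 against siNS cells, with COL1A1, COL1A2 and RUNX2 lower and ALPL (mean 20.6 CPM in siNFKB2 and 5.07 CPM in siNS cells) and SPP1 (24.8 and 10.6 CPM) higher, and none was called in siRELB against siNS cells. Of all tested genes, 26.1% were called in siNFKB2 against siNS and 2.02% in siRELB against siNS. SP7, IBSP and BGLAP were at or near 0 in all groups. The summed level of 6 epithelial markers was 9.50 to 17.1 CPM over the 9 libraries. For 6 blood markers it was 2.15 to 4.78 CPM in siNFKB2, 4.92 to 7.33 CPM in siRELB and 5.06 to 6.99 CPM in siNS libraries, and CD3E and LYZ were at 0. The part of marker levels and mitochondrial rRNA in the results below was not tested.

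In siNFKB2 cells, 18 of the 35 tested centromere and kinetochore genes fell and none rose against siNS cells, by edgeR's quasi-likelihood test at an adjusted p below 0.05. None was higher at an unadjusted p below 0.05 or by DESeq2 either. Over all 14815 genes, 26.1% were called in this comparison, 13.5% lower and 12.6% higher. Without siNS replicate 3 or siNFKB2 replicate 2, calls were made for 15.5% and 14.6% of all genes, and 12 and 13 of the 35 were lower. The log2 fold changes of the 35 genes had a median of -0.57 and ran from -1.07 (SKA2) to 0.19 (CENPT), and 33 of them were negative, while the median of all genes was -0.00. For 23 of the 35 every siNFKB2 library lay below every siNS library, which was so for 18.6% of all genes. The 36 genes together took 1996, 1805 and 1952 CPM, here of unscaled totals, in siNFKB2 replicates 1 to 3, against 2798, 2828 and 2803 in siNS replicates 1 to 3. In a bulk sample, fewer cells in the phases that express these genes and less RNA per cell cannot be told apart. The 18 calls were spread over all 3 classes, with 7 of 14 constitutive centromere genes (median -0.42), 9 of 18 outer kinetochore genes (median -0.60) and 2 of 3 CENPA loading genes (median -0.59). Differences between the classes were not tested.

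**Figure D1:**
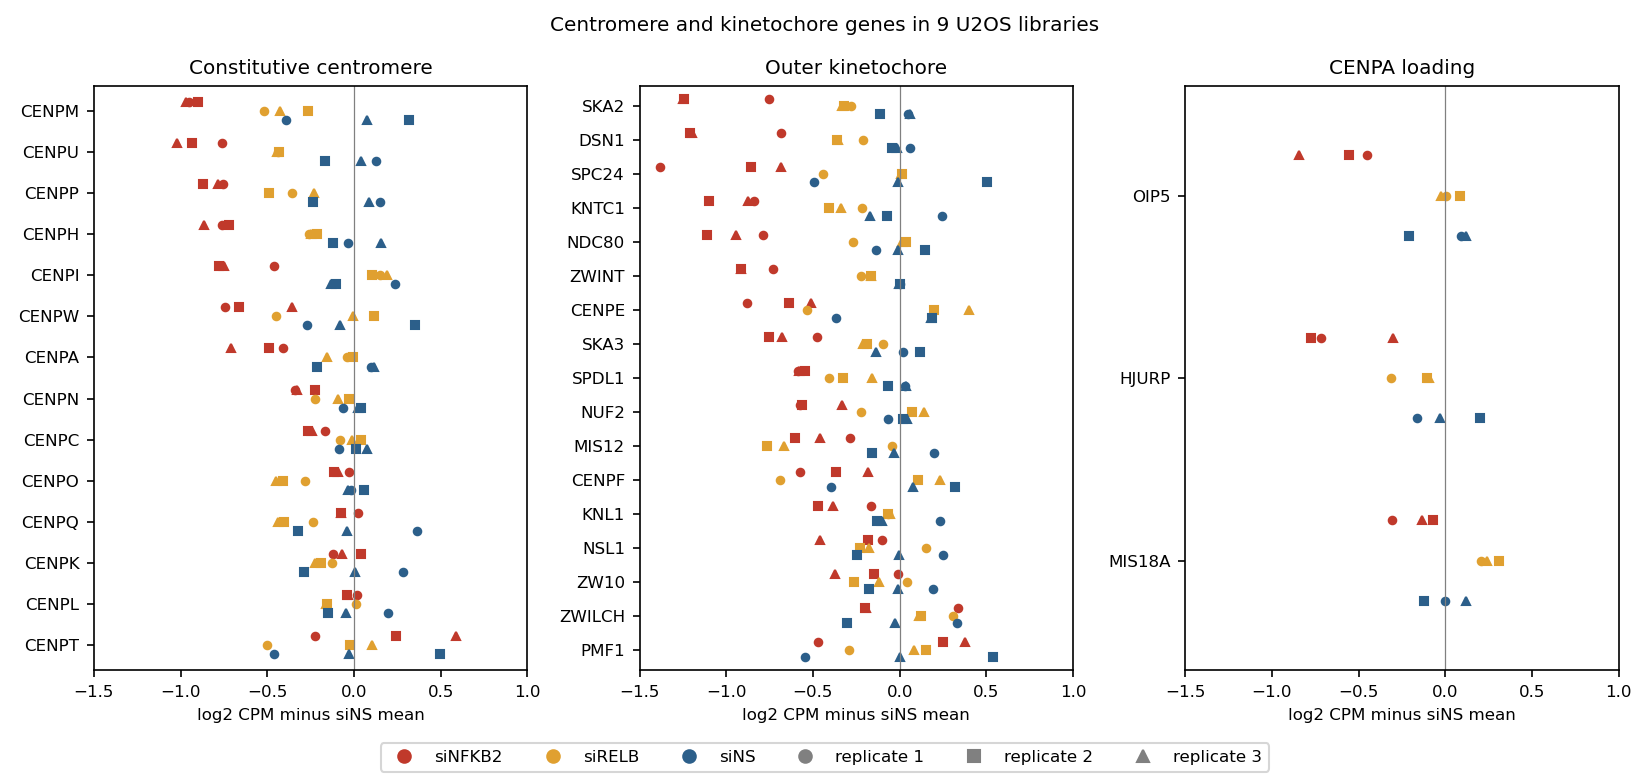
Each point is the log2 CPM of a gene in a library minus the mean of the 3 siNS libraries (horizontal axis), with color for the group and shape for the replicate, for 34 of the genes (SPC25 and SKA1 are left out because of their low counts). For genes at the top of each panel the siNFKB2 points lie left of the siNS points, and for genes at the bottom siNFKB2 and siNS overlap. The siRELB points lie left of both groups for CENPO and right of both for MIS18A.

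Among constitutive centromere genes, CENPA itself had 47.3, 44.7 and 38.4 CPM in siNFKB2 replicates 1 to 3, 61.2, 62.6 and 56.5 CPM in siRELB and 67.4, 54.2 and 68.1 CPM in siNS cells. Every siNFKB2 library was below every library of the other groups. The fold change against siNS was -0.54 on the log2 scale (SE 0.132, adjusted p = 0.0136), and the call was lost without siNS replicate 3 (0.0701), siNFKB2 replicate 2 (0.0532) or siNFKB2 replicate 3 (0.0679). CENPA (chromosome 2, 26764289 to 26801067, plus strand, GRCh38, GENCODE 29) shares 6.96% of its exonic length with SLC35F6 on the same strand. CENPC, which binds the CENPA nucleosome and links it to the outer layers, averaged 16.6 ± 0.579 CPM in siNFKB2 and 19.5 ± 1.10 CPM in siNS cells and was not called (log2 -0.23, SE 0.118, adjusted p = 0.184).

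CENPH, CENPI, CENPK and CENPM belong to a subcomplex of the constitutive network that connects CENPC with the other CENP proteins. CENPH (chromosome 5, 69189548 to 69210357, plus strand) had 29.5, 30.3 and 27.5 CPM in siNFKB2, 41.8, 43.3 and 42.1 CPM in siRELB and 48.9, 46.1 and 56.0 CPM in siNS cells. Both knockdowns lay wholly below siNS, and siNFKB2 wholly below siRELB, with a call for siNFKB2 against each of the other groups and none for siRELB against siNS (against siNS log2 -0.79, SE 0.116, adjusted p = 0.00123). CENPI (chromosome X, 101098218 to 101163681, plus strand) had 40.9, 32.8 and 33.5 CPM in siNFKB2, 62.4, 60.4 and 64.2 CPM in siRELB and 66.4, 52.3 and 51.3 CPM in siNS cells. Here siRELB and siNS overlapped and siNFKB2 lay below both (against siNS log2 -0.67, SE 0.140, adjusted p = 0.00674). CENPM (chromosome 22, 41938721 to 41947164, minus strand) had 30.8, 31.9 and 30.4 CPM in siNFKB2, 41.4, 49.6 and 44.3 CPM in siRELB and 45.3, 74.3 and 62.8 CPM in siNS cells. The siNFKB2 libraries were close to each other and below all others, while the siNS libraries spread widely (against siNS log2 -0.97, SE 0.171, adjusted p = 0.00282). CENPK, the remaining subunit, was not called and its groups overlapped, at 33.5 to 37.5 CPM in siNFKB2 and 29.8 to 44.4 CPM in siNS cells (log2 -0.07, SE 0.148, adjusted p = 0.781). So 3 of the 4 subunits fell in siNFKB2 cells, where 13.5% of all genes were called lower against siNS.

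The 4 genes listed here from the CENP-O/P/Q/U complex, which helps kinetochores recruit the kinase PLK1, differed among themselves. CENPU (chromosome 4, 184694618 to 184734133, minus strand) had 63.4, 56.2 and 52.9 CPM in siNFKB2, 79.6, 79.8 and 79.1 CPM in siRELB and 118, 95.9 and 111 CPM in siNS cells. The 3 groups were separate and in that order, and the siNFKB2 level was 53.2% of the siNS mean (log2 -0.91, SE 0.118, adjusted p = 0.000633). CENPP (chromosome 9, 92325484 to 92620533, plus strand) had 4.72, 4.35 and 4.63 CPM in siNFKB2, 6.25, 5.69 and 6.84 CPM in siRELB and 8.94, 6.82 and 8.56 CPM in siNS cells. Its siNFKB2 libraries were below all others at 56.3% of the siNS mean (log2 -0.83, SE 0.169, adjusted p = 0.00586). CENPO (chromosome 2, 24793136 to 24822376, plus strand) had 85.2, 80.2 and 81.5 CPM in siNFKB2, 71.4, 65.5 and 63.6 CPM in siRELB and 85.8, 90.4 and 84.9 CPM in siNS cells. For this gene the siRELB libraries were the lowest and siNFKB2 overlapped siNS (log2 -0.08, SE 0.100, adjusted p = 0.600). CENPQ had the same order of means with overlap between siRELB and siNS, at 29.8 to 31.8 CPM in siNFKB2, 23.1 to 26.6 CPM in siRELB and 25.1 to 40.3 CPM in siNS cells, and was not called in any comparison. Some of these counts are uncertain, because CENPP shares 38.0% of its exonic length with IPPK, CENPO 27.0% with ADCY3 and CENPU 11.7% with PRIMPOL, all on the opposite strand, and whether counting used the strand is not given in the sources used here. Of these neighbours, IPPK was called higher in siNFKB2 against siNS (log2 0.58, adjusted p = 0.0157), opposite to CENPP, and ADCY3 (-0.21, 0.308) and PRIMPOL (-0.30, 0.264) were not called.

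CENPL and CENPN, a pair that binds the CENPA nucleosome, and CENPT and CENPW, a histone-like pair that carries NDC80 to the centromere, complete the constitutive set. CENPW fell to 42.9 ± 6.20 CPM in siNFKB2 cells, against 65.1 ± 14.8 CPM in siNS cells, just inside the threshold (log2 -0.60, SE 0.199, adjusted p = 0.0476). This call was lost in 7 of 17 alternatives, among them without siNS replicate 2 (0.166), siNS replicate 3 (0.0939), siNFKB2 replicate 1 (0.112), siNFKB2 replicate 2 (0.159), siRELB replicate 2 (0.0589) or siRELB replicate 3 (0.0698). CENPN was at 106 to 114 CPM in siNFKB2 and 128 to 138 CPM in siNS cells, without overlap but just outside the threshold (log2 -0.30, SE 0.101, adjusted p = 0.0516). CENPL (-0.03, adjusted p = 0.909) and CENPT (0.19, 0.660) were not called, and their groups overlapped. CENPN overlaps CMC2 over 12.8% and CENPT overlaps TSNAXIP1 over 10.8% of its exonic length, both on the opposite strand.

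**Figure D2:**
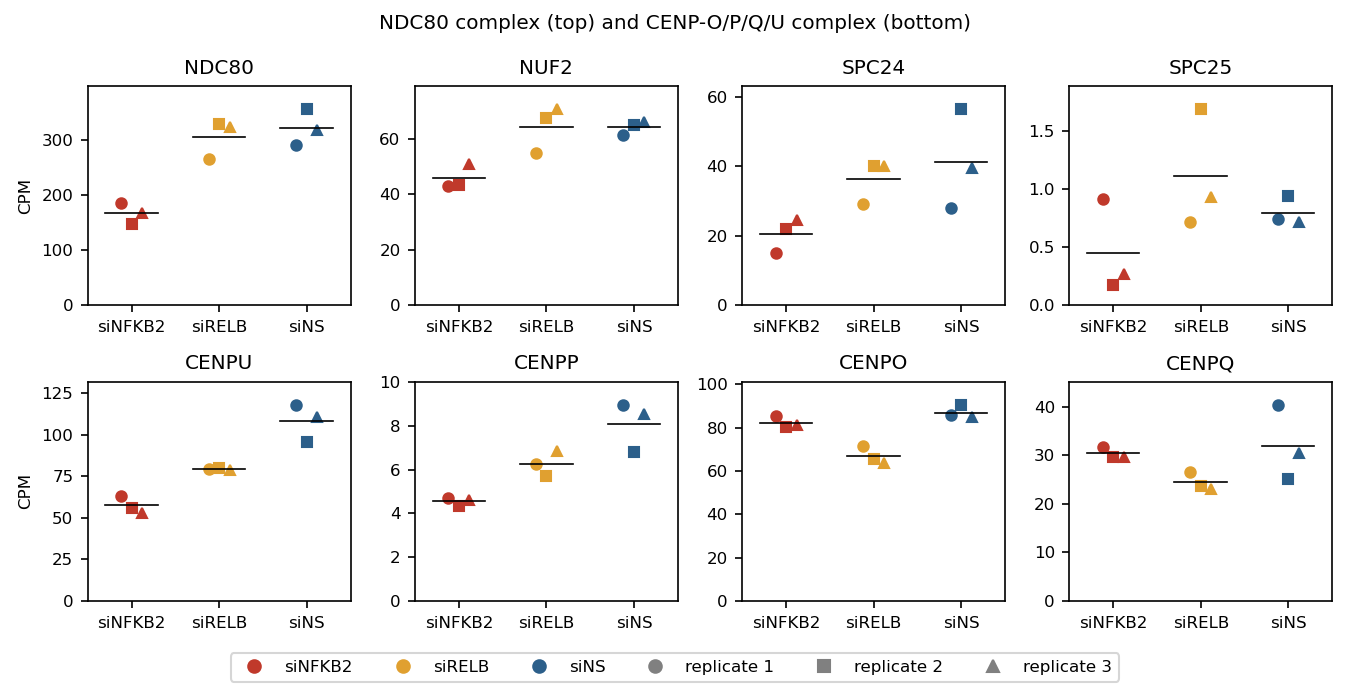
Levels in CPM (vertical axes, each from 0) of the 4 genes of the NDC80 complex and 4 listed genes of the CENP-O/P/Q/U complex in siNFKB2, siRELB and siNS libraries, with a line at each group mean. NDC80, NUF2 and SPC24 are lowest in siNFKB2 and alike in the other groups, SPC25 stays below 2 CPM, CENPU and CENPP step up from siNFKB2 through siRELB to siNS, and CENPO and CENPQ are lowest in siRELB.

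At the outer kinetochore, NDC80 (chromosome 18, 2571511 to 2616635, plus strand), the microtubule-binding subunit that names its complex, had 186, 148 and 167 CPM in siNFKB2, 266, 329 and 324 CPM in siRELB and 292, 355 and 319 CPM in siNS cells. All siNFKB2 libraries lay below all others, while siRELB and siNS overlapped. The siNFKB2 mean was 51.8% of the siNS mean (log2 -0.95, SE 0.131, adjusted p = 0.000890). NUF2, its coiled-coil partner, fell to 45.8 ± 4.41 CPM in siNFKB2 cells, against 64.2 ± 2.54 CPM in siNS cells (log2 -0.49, SE 0.129, adjusted p = 0.0194). SPC24, from the centromere-facing end of the complex, fell to 20.5 ± 4.88 CPM in siNFKB2 cells, against 41.3 ± 14.2 CPM in siNS cells (log2 -1.01, SE 0.263, adjusted p = 0.0183). Leaving out siNS replicate 2, siNS replicate 3 or siNFKB2 replicate 2 ended both calls, at adjusted p of 0.0509, 0.0849 and 0.0985 for NUF2 and 0.0643, 0.0509 and 0.0605 for SPC24. SPC25, the partner of SPC24, was counted at 0.174 to 0.913 CPM in siNFKB2 and 0.713 to 0.938 CPM in siNS cells and was not called (log2 -0.77, SE 0.573, adjusted p = 0.359), although without siNFKB2 replicate 1 it was (-1.84, 0.0379).

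Low counts of SPC25 and SKA1 cannot be read as absent expression. They are the 2 genes of the 36 with an additional suffixed entry in the tables (SPC25_1 and SKA1_1), which held 62 and 0 counts over all libraries. Of 1247 protein-coding symbols with such an entry 63.6% were at 0 in every library and 12.2% were tested, whereas of 17904 without one 11.7% were at 0 and 69.1% were tested. Summing the entries of a gene was among the alternatives and changed no call of these genes.

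In the KNL1 complex, the platform for checkpoint proteins, ZWINT (chromosome 10, 56357228 to 56361275, minus strand) binds KNL1 and helps to recruit the RZZ complex. It had 178, 157 and 157 CPM in siNFKB2, 253, 264 and 263 CPM in siRELB and 295, 296 and 295 CPM in siNS cells. The siNS libraries were almost equal, siRELB lay below them and siNFKB2 below both, and ZWINT had the smallest adjusted p of the 35 genes (log2 -0.85, SE 0.0954, adjusted p = 0.000377). KNL1, the large scaffold, averaged 50.5 ± 5.74 CPM in siNFKB2 and 64.2 ± 9.41 CPM in siNS cells, without overlap between the groups but without a call (log2 -0.34, SE 0.134, adjusted p = 0.0844).

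The MIS12 complex bridges the constitutive network and NDC80, and 1 of its 4 genes was called in siNFKB2 against siNS. Of all genes, 26.1% were called in this comparison, 13.5% lower. DSN1 (chromosome 20, 36751791 to 36773818, minus strand), the subunit through which Aurora B regulates binding to the centromere, had 38.7, 26.8 and 27.1 CPM in siNFKB2, 53.7, 48.4 and 48.6 CPM in siRELB and 64.8, 60.3 and 61.6 CPM in siNS cells. The 3 groups were separate, and siNFKB2 replicate 1 was the highest of its group (log2 -1.01, SE 0.153, adjusted p = 0.00136). MIS12 (-0.45, adjusted p = 0.122), NSL1 (-0.25, 0.301) and PMF1 (0.03, 0.952) were not called. PMF1 shares 23.3% of its exonic length with the readthrough gene PMF1-BGLAP on the same strand, which was listed at 0 in siNS libraries.

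SKA2 and SKA3 belong to the SKA complex, which couples NDC80 to shortening microtubules. SKA2 (chromosome 17, 59109951 to 59155269, minus strand) had 90.7, 64.5 and 64.1 CPM in siNFKB2, 126, 123 and 121 CPM in siRELB and 158, 142 and 159 CPM in siNS cells. The groups were separate, and its fold change against siNS was the most negative of the 35 genes (log2 -1.07, SE 0.143, adjusted p = 0.000767). SKA3 fell to 39.9 ± 4.07 CPM in siNFKB2 cells, against 62.0 ± 5.44 CPM in siNS cells (log2 -0.63, SE 0.121, adjusted p = 0.00429).

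ZW10, ZWILCH and KNTC1 (also called ROD) form the RZZ complex of the kinetochore corona, and SPDL1, or Spindly, links it to the motor dynein. KNTC1 (chromosome 12, 122527246 to 122626396, plus strand) had 40.0, 33.4 and 39.0 CPM in siNFKB2, 61.6, 54.1 and 56.8 CPM in siRELB and 85.0, 68.2 and 63.7 CPM in siNS cells. Its groups were separate in that order (log2 -0.95, SE 0.140, adjusted p = 0.00123). SPDL1 fell to 51.6 ± 0.832 CPM in siNFKB2 cells, against 76.8 ± 2.98 CPM in siNS cells (log2 -0.57, SE 0.108, adjusted p = 0.00389). Neither ZW10 (-0.18, adjusted p = 0.389) nor ZWILCH (-0.02, 0.951) was called, and both overlapped siNS. Of the corona proteins CENPE, a kinesin that moves chromosomes, and CENPF, a large protein that peaks in G2 phase, neither was called (CENPE log2 -0.69, SE 0.238, adjusted p = 0.0555 and CENPF log2 -0.40, SE 0.244, adjusted p = 0.264). CENPE was just outside the threshold and was called in 7 of 17 alternatives, including DESeq2 (0.0267), without siNS replicate 1 (0.0165) and without siRELB replicate 1 (0.0200).

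The CENPA loading genes OIP5, a subunit of the Mis18 complex, and HJURP, the chaperone that carries CENPA, fell in siNFKB2 cells. OIP5 (chromosome 15, 41309268 to 41332621, minus strand) had 21.0, 19.6 and 16.0 CPM in siNFKB2, 28.9, 30.6 and 28.3 CPM in siRELB and 30.7, 24.9 and 31.3 CPM in siNS cells. The siNFKB2 libraries were below all others (log2 -0.62, SE 0.145, adjusted p = 0.0114). HJURP (chromosome 2, 233833416 to 233854566, minus strand) had 63.4, 60.9 and 84.6 CPM in siNFKB2, 84.0, 96.8 and 97.8 CPM in siRELB and 92.9, 119.6 and 102 CPM in siNS cells. Its siNFKB2 libraries were below siNS, and replicate 3, the highest of them, reached above siRELB replicate 1 (log2 -0.59, SE 0.154, adjusted p = 0.0181). OIP5 lost its call without siNS replicate 3 (0.0576) or siNFKB2 replicate 3 (0.0544), and HJURP without siNS replicate 2 (0.0672), siNS replicate 3 (0.0587) or siNFKB2 replicate 2 (0.0957). MIS18A (chromosome 21, 32268219 to 32279069, minus strand), another Mis18 subunit, had 49.1, 57.7 and 55.3 CPM in siNFKB2, 69.9, 75.3 and 71.7 CPM in siRELB and 60.7, 55.8 and 66.0 CPM in siNS cells. It was not called against siNS (log2 -0.17, SE 0.115, adjusted p = 0.304). OIP5 shares 38.0% of its exonic length with OIP5-AS1 on the opposite strand, which was called higher in siNFKB2 cells (log2 0.79, adjusted p = 0.00408), opposite to OIP5.

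**Figure D3:**
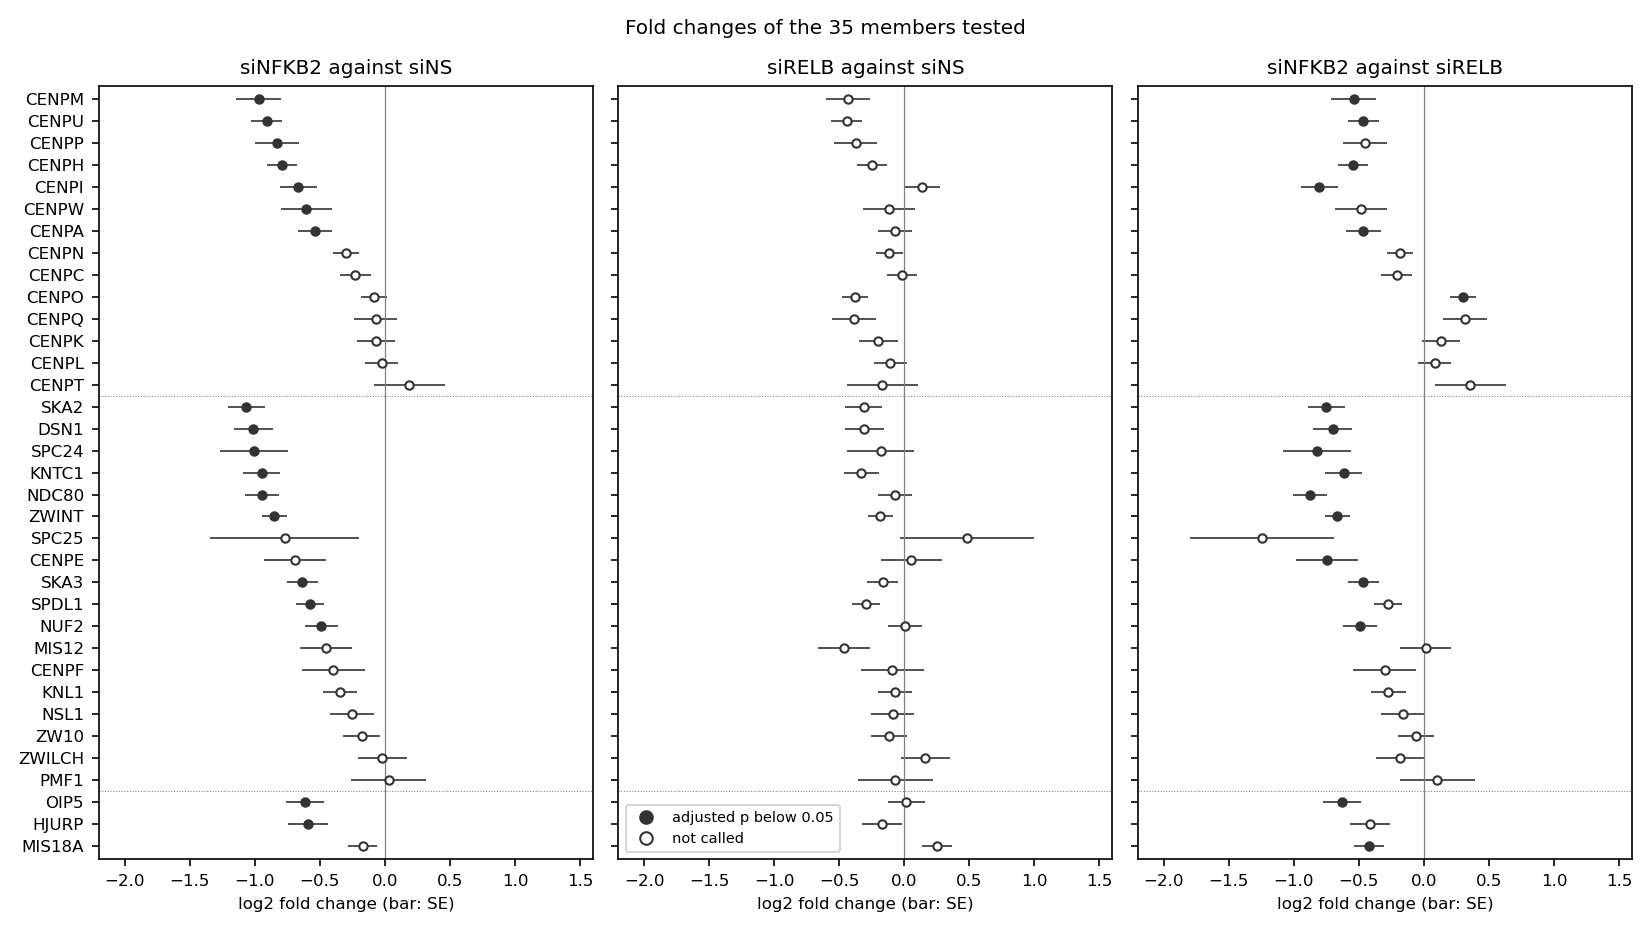
Log2 fold changes with their SE (horizontal axis) of the 35 tested genes in the 3 comparisons, filled where the adjusted p was below 0.05. All 18 filled points of siNFKB2 against siNS are left of 0, no point is filled in siRELB against siNS, and CENPO is the filled point right of 0 in siNFKB2 against siRELB.

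In siRELB cells none of the 35 genes was called against siNS cells, by edgeR's quasi-likelihood test, where 2.02% of all genes were called (0.81% lower and 1.21% higher). That share depended on single libraries. Of all genes, 1819 (12%) were called without siNS replicate 1, against 60, 19, 15 and 30 without siNS replicate 2, siNS replicate 3, siRELB replicate 2 and siRELB replicate 3, and 150, 177 and 184 without siNFKB2 replicate 2, siNFKB2 replicate 3 and siRELB replicate 1. DESeq2 called 813 of the 26308 genes it fitted. Fold changes had a median of -0.12 with 28 negative, against a median of -0.02 over all genes, and ran from -0.46 (MIS12) to 0.48 (SPC25). At an unadjusted p below 0.05, 8 genes were lower (22.9% of the 35, against 8.01% of all genes) and none higher, and 16.8% of all genes passed that limit in either direction. Without siNS replicate 3, siRELB replicate 2 or siRELB replicate 3, 3 genes (8.57% of the 35) were lower at this limit. Of all genes, 4.68%, 5.11% and 4.64% were lower at it in these fits. The 8 of the main fit included the 4 genes listed here from the CENP-O/P/Q/U complex, CENPU (log2 -0.44, SE 0.117, adjusted p = 0.0913), CENPO (log2 -0.38, SE 0.100, adjusted p = 0.0921), CENPQ (log2 -0.39, SE 0.168, adjusted p = 0.281) and CENPP (log2 -0.37, SE 0.165, adjusted p = 0.289). The other 4 were SPDL1 (log2 -0.30), CENPM (-0.43), KNTC1 (-0.33) and MIS12 (-0.46), with adjusted p from 0.200 to 0.275. DESeq2 called 2 genes lower, CENPO (adjusted p = 0.00593) and CENPU (0.0254), where it called 1.43% of the genes it fitted lower. Leaving out siNS replicate 1 also gave 2 lower calls, CENPM (0.0158) and CENPO (0.0414), where 5.81% of all genes were called lower. Every siRELB library was below every siNS library for 8 genes and above for 1, MIS18A, and over all genes this was so for 10.2% and 12.3%. The 36 genes together took 2456, 2690 and 2762 CPM of unscaled totals in siRELB replicates 1 to 3, all below the siNS libraries given above.

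The knockdowns were also compared directly, since both comparisons above use the same siNS libraries. In siNFKB2 against siRELB cells 16 of the 35 genes were lower and 1 was higher, where 26.6% of all genes were called, 14.3% lower and 12.2% higher. The median log2 fold change was -0.45 for the 35 genes and 0.02 for all genes. Called lower were 5 constitutive centromere genes, CENPI (log2 -0.80, SE 0.140, adjusted p = 0.00273), CENPH (log2 -0.54, SE 0.116, adjusted p = 0.00735), CENPU (-0.47), CENPA (-0.47) and CENPM (-0.54). CENPO was the gene called higher (log2 0.30, SE 0.100, adjusted p = 0.0497), and its libraries were lowest in siRELB cells. That call was at the edge of the threshold and was lost with no filter on low counts (0.229) and without any of siNS replicate 3 (0.0671), siNFKB2 replicates 1 to 3 (0.0892, 0.0847 and 0.102) and siRELB replicates 1 to 3 (0.0651, 0.166 and 0.186).

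Outer kinetochore genes held 9 of the 16 lower calls between the knockdowns. ZWINT (log2 -0.67, SE 0.0952, adjusted p = 0.00100) and NDC80 (log2 -0.88, SE 0.131, adjusted p = 0.00122) had the smallest adjusted p, followed by SKA2 (-0.75), DSN1 (-0.70) and KNTC1 (-0.62). The other 4 were SPC24 (-0.82), CENPE (-0.75), NUF2 (-0.49) and SKA3 (-0.47). CENPE thus differed between the knockdowns but not between siNFKB2 and siNS at the threshold, and its siNFKB2 and siRELB libraries overlapped at siRELB replicate 1, the lowest of its group. Of the CENPA loading genes OIP5 (log2 -0.63, SE 0.145, adjusted p = 0.0103) and MIS18A (log2 -0.42, SE 0.115, adjusted p = 0.0218) were lower, and the siNS libraries of MIS18A overlapped siNFKB2 and lay below siRELB. The replicate number was also used as a block over all 9 libraries, siNS included, although the numbers were taken to pair only siNFKB2 and siRELB. The counts above use no pairing, and no fit paired siNFKB2 and siRELB alone. With the block CENPP (adjusted p = 0.0402), CENPW (0.0154), SPDL1 (0.0458) and HJURP (0.0177) were called lower as well. That made 20 lower genes, where 20.9% of all genes were called lower. The lower count was 7 without siNFKB2 replicate 2, 8 without siRELB replicate 2, 8 without siRELB replicate 3 and 10 without siNFKB2 replicate 3, where 7.64%, 8.68%, 8.96% and 8.99% of all genes were called lower. CENPH, CENPI, ZWINT, DSN1, NDC80, SKA2 and OIP5 were the 7 that stayed called in all 17 alternatives. Of the others besides CENPO, KNTC1 was lost without siNFKB2 replicate 2 (0.0634) and NUF2 without that library, siRELB replicate 2 or siRELB replicate 3 (up to 0.094). CENPU and MIS18A were lost without siNFKB2 replicate 2 or 3 or siRELB replicate 2 or 3 (up to 0.0778 and 0.0895), and CENPA and SKA3 also without siRELB replicate 1 (up to 0.115 and 0.0845). CENPE, CENPM and SPC24 were lost without siNS replicate 3, any siNFKB2 library or siRELB replicate 2 or 3 (up to 0.162, 0.137 and 0.121), and CENPM also without siRELB replicate 1 (0.0567).

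Medians over each class were also taken library by library. Relative to the siNS mean, the median of the 14 constitutive centromere genes was -0.38, -0.38 and -0.34 in siNFKB2 replicates 1 to 3, and -0.25, -0.17 and -0.19 in siRELB replicates 1 to 3. For the 18 outer kinetochore genes it was -0.58, -0.62 and -0.55 in siNFKB2 and -0.22, -0.12 and -0.09 in siRELB replicates 1 to 3. For the 3 CENPA loading genes it was -0.45, -0.55 and -0.30 in siNFKB2 and 0.0058, 0.087 and -0.027 in siRELB replicates 1 to 3. Beside them stood 20 genes that serve DNA replication in S phase, of which 18 fell against siNS in siNFKB2 cells (median -1.04), where 13.5% of all genes were called lower. None fell in siRELB cells (median -0.15), where 0.81% of all genes were called lower, and 2 of the 20 were lower at an unadjusted p below 0.05, against 8.01% of all genes. Their medians per library were -0.74, -1.12 and -1.20 for siNFKB2 replicates 1 to 3, against -0.07, -0.16 and -0.17 for siRELB replicates. S phase genes thus fell in siNFKB2 cells as many centromere and kinetochore genes did, but the order of the replicates differed between the lists. The part of S phase genes in the result was not tested.

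**Figure D4:**
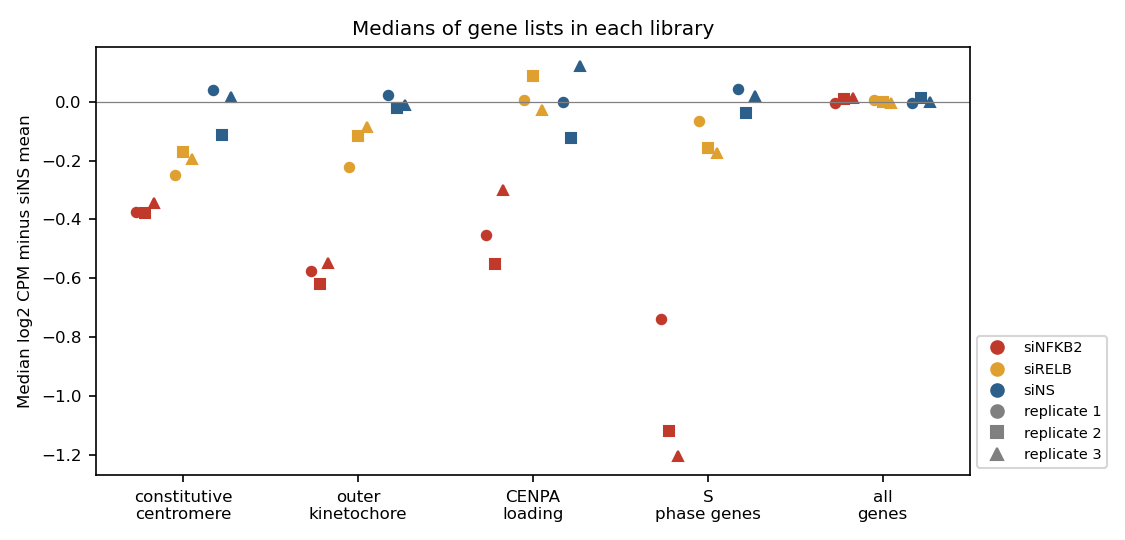
Median log2 CPM minus the siNS mean (vertical axis) of the 3 classes, of 20 S phase genes and of all 14815 tested genes, with a point per library. The siNFKB2 points of every class lie below the siNS points, and the points of all genes lie near 0 in every library.

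Levels between genes can be compared per length, as CPM per kilobase of annotated exon. In siNS cells ZWINT was the highest of the 36 genes, at 124 ± 0.342 CPM per kilobase (SD, n = 3), followed by NDC80 at 89.4 ± 8.87 and CENPW at 81.9 ± 18.7, and the libraries of NDC80 and CENPW overlapped. SKA2 (48.6 ± 3.17) and ZW10 (40.3 ± 5.18) came next and overlapped too. At the low end were CENPC (2.26 ± 0.127), CENPP (0.828 ± 0.116) and SPC25 (0.432 ± 0.0671). Genes of a complex were far from equal in siNS cells. In the NDC80 complex, NUF2 was at 19.1 ± 0.756 and SPC24 at 14.5 ± 5.00 CPM per kilobase, overlapping each other and below NDC80. In the KNL1 complex, KNL1 stood at 6.26 ± 0.918, well below ZWINT, and CENPT at 5.29 ± 1.76 was below its partner CENPW. DSN1 at 22.7 ± 0.834 was above MIS12 (9.27 ± 1.19), NSL1 (8.31 ± 1.44) and PMF1 (6.23 ± 2.31), which overlapped. After NFKB2 knockdown, DSN1 stood at 11.3 ± 2.48 CPM per kilobase in siNFKB2 cells, closer to MIS12 (6.78 ± 0.753) and NSL1 (6.97 ± 0.874). ZWINT and NDC80 stayed above the other subunits of their complexes in siNFKB2 cells, at 68.9 ± 5.07 and 46.4 ± 5.16. These values use the union of all annotated exons, which can be longer than any single transcript, so they depend on the annotation.

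**Figure D5:**
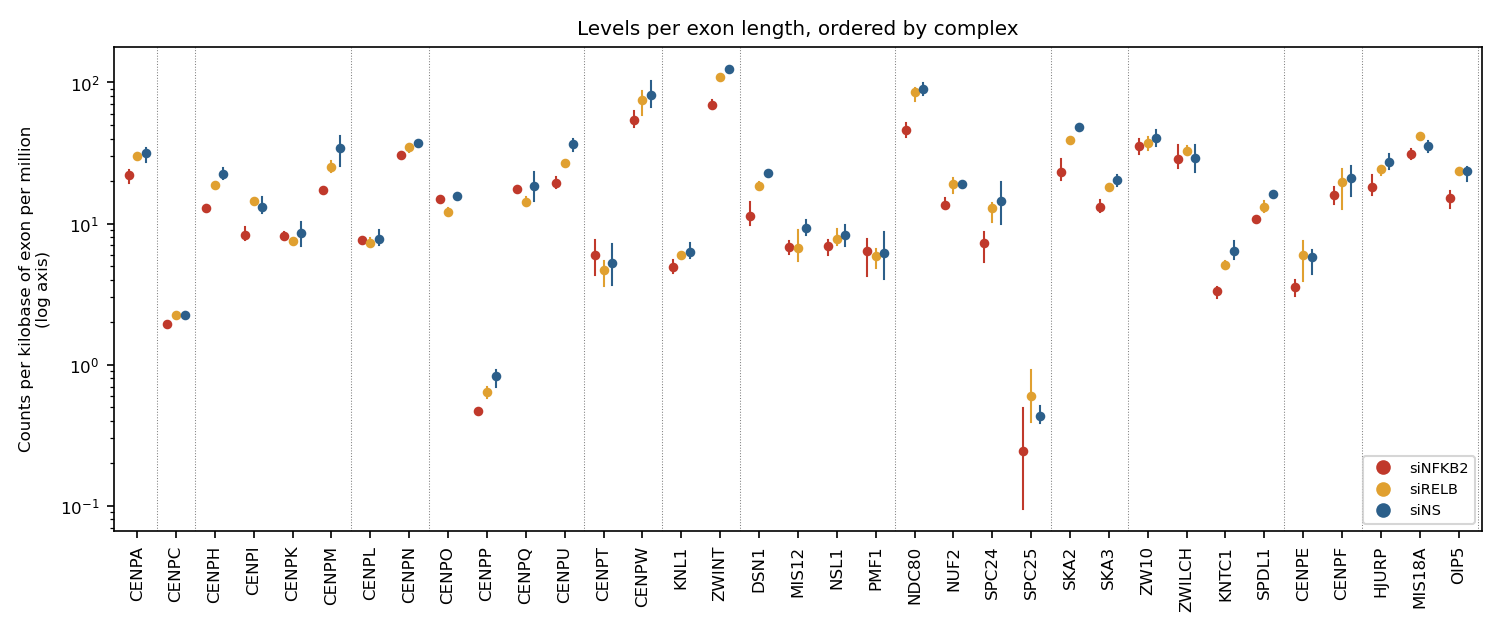
Mean level per length (vertical log axis, CPM per kilobase of exon) of the 35 tested genes in siNFKB2, siRELB and siNS cells, with a bar from the lowest to the highest library and dotted lines between complexes. ZWINT, NDC80 and CENPW stand at the top, and CENPC, CENPP and SPC25 at the bottom in all groups.

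Promoters were examined as a feature of these genes apart from their levels. RefSeq promoter sequences on GRCh38.p14, from 250 bases before to 50 bases after the start, were matched for 30 of the 36 genes. Shown are NDC80 and NUF2, called lower in siNFKB2 cells and in the same complex, ZWINT, with the smallest adjusted p, and CENPU and CENPO, from a complex whose genes differed. In the order printed they lie at chr18:2571307-2571606 (plus strand), chr1:163321704-163322003 (plus strand), chr10:56361210-56361509 (minus strand), chr4:184734047-184734346 (minus strand) and chr2:24793175-24793474 (plus strand). Each is written 5′ to 3′ on the gene's strand. Capitals mark TTTGAA, the core of the cell cycle homology region (CHR) bound by late cell cycle regulators, or CCAAT, the box bound by NF-Y, on either strand.
NDC80: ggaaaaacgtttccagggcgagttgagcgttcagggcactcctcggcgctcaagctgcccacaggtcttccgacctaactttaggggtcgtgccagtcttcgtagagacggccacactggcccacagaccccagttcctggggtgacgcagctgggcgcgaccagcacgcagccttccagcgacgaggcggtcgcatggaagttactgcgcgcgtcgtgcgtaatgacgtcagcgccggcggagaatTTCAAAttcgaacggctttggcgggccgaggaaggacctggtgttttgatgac
NUF2: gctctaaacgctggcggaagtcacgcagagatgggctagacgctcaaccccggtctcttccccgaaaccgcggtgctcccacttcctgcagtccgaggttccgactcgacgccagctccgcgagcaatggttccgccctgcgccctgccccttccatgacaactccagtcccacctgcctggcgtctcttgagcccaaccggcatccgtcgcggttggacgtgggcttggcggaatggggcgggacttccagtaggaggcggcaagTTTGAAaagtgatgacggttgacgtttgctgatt
ZWINT: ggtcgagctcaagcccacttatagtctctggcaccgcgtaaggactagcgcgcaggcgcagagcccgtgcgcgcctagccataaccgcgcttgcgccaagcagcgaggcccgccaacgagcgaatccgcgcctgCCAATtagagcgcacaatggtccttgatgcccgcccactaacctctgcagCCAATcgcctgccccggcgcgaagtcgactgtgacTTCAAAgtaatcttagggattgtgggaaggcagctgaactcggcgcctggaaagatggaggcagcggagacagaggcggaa
CENPU: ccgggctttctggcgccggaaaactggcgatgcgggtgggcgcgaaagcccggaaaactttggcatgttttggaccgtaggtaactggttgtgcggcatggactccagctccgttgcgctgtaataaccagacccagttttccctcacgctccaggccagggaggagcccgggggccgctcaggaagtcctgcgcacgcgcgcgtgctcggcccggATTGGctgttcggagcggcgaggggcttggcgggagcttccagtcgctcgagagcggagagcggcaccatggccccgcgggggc
CENPO: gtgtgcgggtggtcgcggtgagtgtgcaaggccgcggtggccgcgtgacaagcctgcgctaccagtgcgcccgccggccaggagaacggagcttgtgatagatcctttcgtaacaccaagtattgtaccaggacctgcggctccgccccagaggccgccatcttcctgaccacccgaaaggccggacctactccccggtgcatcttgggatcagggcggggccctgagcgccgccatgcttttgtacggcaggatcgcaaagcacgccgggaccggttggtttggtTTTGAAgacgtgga
The TTTGAA letters start 3 bases before the annotated start in NDC80, and 31 bases before it in ZWINT, both printed as TTCAAA because they are on the opposite strand, and lie after the start in NUF2 and CENPO. CENPU held CCAAT on the opposite strand and no match to the CHR core.

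TTTGAA was found on either strand in 14 of the 30 promoters (46.7%), against 10.1% of the 10956 promoters matched to tested genes and 15.4% of all 27305 promoters in the table. CCAAT was in 19 of 30 (63.3%), against 3944 of the 10956 promoters of tested genes and 35.7% of all promoters. GCGGGAA, a form of the site bound by E2F factors, was in 8 of 30 (26.7%), against 10.1% and 6.56%. A strict form of the NF-kB consensus was in none of the 30 promoters, 0.557% of the promoters of tested genes and 0.579% of all promoters. Each motif was searched on both strands, and other forms of each site were not searched. TTTGAA was in 7 of 15 matched genes called lower in siNFKB2 cells and in 6 of 14 tested and not called, CCAAT in 9 of 15 and 10 of 14, and GCGGGAA in 3 of 15 and 4 of 14. A match describes the sequence and does not show that a factor binds there.

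Other genes of the same structures were followed through a list of 25, which holds inner centromere, checkpoint and microtubule-binding proteins. Against siNS, 14 of the 25 fell in siNFKB2 cells and none rose (1 was higher at an unadjusted p below 0.05), with a median of -0.44, beside the backgrounds of 13.5% and 12.6% given above. With siRELB libraries kept out of the fit the lower count was 9, and it was 8 without siNFKB2 replicate 2 and 7 without siNFKB2 replicate 3. Of all genes, 9.76%, 7.49% and 8.98% were called lower in these 3 fits. The higher count was 1 with DESeq2, the filter at 5 CPM, the replicate block, or without siNFKB2 replicate 1. In those fits 16.3%, 31.4%, 40.1% and 28.1% of all genes were called in either direction. CENPB, which binds a DNA box in centromeric repeats, fell to 51.8 ± 6.69 CPM in siNFKB2 cells, against 146 ± 27.7 CPM in siNS cells (log2 -1.50, SE 0.154, adjusted p = 0.000267). The depolymerising kinesin KIF2C (log2 -0.80, SE 0.0920, adjusted p = 0.000403), the Aurora B partners INCENP (log2 -0.94, SE 0.123, adjusted p = 0.000676) and CDCA8 (log2 -0.60, SE 0.107, adjusted p = 0.00304), and the checkpoint kinase BUB1 (log2 -0.64, SE 0.110, adjusted p = 0.00245) were the others with the smallest adjusted p. In siRELB cells, where 0.81% of all genes were called lower, 1 of the 25 fell against siNS, the checkpoint protein BUB3, at 144 ± 3.40 CPM in siRELB and 207 ± 9.35 CPM in siNS cells (log2 -0.53, SE 0.108, adjusted p = 0.0388). That call was lost without any of siNS replicate 2 or 3 (0.0849 and 0.212), siNFKB2 replicate 2 or 3 (0.0651 and 0.0703) and siRELB replicates 1 to 3 (0.092, 0.193 and 0.196). Without siNS replicate 1 the lower count was 4, where 5.81% of all genes were called lower. Between the knockdowns 13 of the 25 were lower in siNFKB2 cells, led by CENPB (log2 -1.11, SE 0.153, adjusted p = 0.000835), INCENP (log2 -0.78, SE 0.123, adjusted p = 0.00158), BUB1B (log2 -0.71, SE 0.124, adjusted p = 0.00273) and CDCA8 (log2 -0.59, SE 0.107, adjusted p = 0.00323), and BUB3 was higher (log2 0.83, SE 0.108, adjusted p = 0.000659). Over all genes, 14.3% were called lower and 12.2% higher between the knockdowns. Without siNS replicate 1, 3 of the 25 were higher, where 32.4% of all genes were called in either direction.

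Libraries numbered 1 held the lowest or the highest value of their groups for some of the 35 genes, about as often as over all tested genes. Over all genes these libraries deviated together, as their deviations from the group means correlated at 0.535 to 0.594 between groups. Pairs within a group had chi-square values per degree of freedom of 21.3 to 75.8 with replicate 1 and 3.13 to 16.8 without it. The main fit held no term for the replicate number. In every group the library numbered 1 was the lowest for 8 genes (22.9%, against 19.9% of all tested genes), CENPN, CENPT, CENPW, PMF1, NUF2, SPC24, CENPE and CENPF. It was the highest for another 8 (22.9%, against 23.7%), CENPL, CENPQ, DSN1, MIS12, NSL1, ZW10, ZWILCH and KNTC1. The labels give no batch or date, so what these libraries share cannot be told apart from their replicate number. Without these 3 libraries, an alternative chosen with earlier results known, 24 of the 35 genes were lower in siNFKB2 against siNS, 6 in siRELB against siNS and 23 in siNFKB2 against siRELB. Over all genes, 23.2%, 11.7% and 22.4% were then called lower in these comparisons, and 44.9%, 22.7% and 44.1% in either direction.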

How the data were processed

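Oligo-dT selected RNA of U2OS cells was measured in 9 libraries, grouped by the siRNA in the labels (siNFKB2, siRELB and siNS, 3 each). The authors deposited raw whole-number counts for every gene, in a separate table per library, and the labels describe no scaling. The submitters' processing notes name Trimmomatic 0.38, STAR 2.7.1a, Subread 1.6.4 and the build GRCh38.p13, and no annotation or strand setting. Since no label ties a replicate to its own culture, p-values cover only how far these libraries differ, which may be technical. Within groups no library was a copy of another, as the pairs there had chi-square values per degree of freedom of 3.13 to 75.8.

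Genes were filtered by filterByExpr of edgeR 4.0.16 (R 4.3.3), scaled by TMM and fitted with 1 mean per group over all 9 libraries. Comparisons used edgeR's quasi-likelihood test (glmQLFTest), p-values were adjusted by Benjamini-Hochberg over 14815 genes, and calls required an adjusted p below 0.05 whatever the fold. The SE of a log2 fold change is its size over the square root of the F statistic. CPM uses TMM-scaled library sizes, and medians per library use log2 CPM with a prior count of 2. Fewer reads give a wider relative error, and genes below about 5 CPM were read with this limit. Tested on simulated counts, the procedure recovered known changes, all of a single size and planted in genes above 5 CPM. The square root of the dispersion was 0.15 there and 0.184 in these data. No shift shared by libraries numbered 1 was simulated, so this test does not show how many calls here hold. The members and lists were chosen with earlier results of these data known. All 36 genes may be named, and values in every library are given for up to 5 called genes with the smallest adjusted p per class and comparison, for genes called against the majority and for genes that failed the filter. Exon lengths and overlaps come from GENCODE 29 (GRCh38), and the authors may have counted on another annotation.

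Deviations from the group means of same-numbered libraries correlated over genes at 0.535, 0.171 and 0.450 between siNFKB2 and siRELB, all over 0.1, so the numbers were taken to pair these groups. However, siNFKB2 replicate 3 and siRELB replicate 2, with unlike numbers, correlated at 0.258. For siNFKB2 and siNS they correlated at 0.585, 0.0545 and 0.0914, and for siRELB and siNS at 0.594, 0.376 and 0.0439, so the numbers were not taken to pair those. Alternatives were RLE scaling, DESeq2 1.42.0, no filter, a mean of at least 5 CPM, the replicate block, only the 6 libraries compared, summed suffixed entries, each library left out, and no libraries numbered 1.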

Additional observations from a re-analysis of the deposited data

How the results depend on the processing

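Of the 18 calls in siNFKB2 against siNS, 12 held in all 17 alternatives (CENPH, CENPI, CENPM, CENPP, CENPU, ZWINT, DSN1, NDC80, SKA2, SKA3, KNTC1 and SPDL1), and the lower count was 12 to 20 with 1 library left out, with none higher. In siRELB against siNS the lower count was 0 to 2 with 1 library left out, 2 by DESeq2, 3 with the replicate block and 6 without the 3 libraries numbered 1. In siNFKB2 against siRELB the lower count was 7 to 17 and the higher count 0 to 1 with 1 library left out, and the higher count was 0 with no filter and 2 without the libraries numbered 1. The cause of these shifts was not tested.

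With the replicate block 40.1% of all genes were called in siNFKB2 against siNS, 10.6% in siRELB against siNS and 40.9% in siNFKB2 against siRELB. By it 23 of the 35 were lower in siNFKB2 against siNS, beside 20.2% of all genes, although the numbers were not taken to pair these groups. Gained were CENPN (adjusted p = 0.0181), KNL1 (0.0234), MIS12 (0.0132), CENPE (0.00116) and CENPF (0.0355). In siRELB against siNS the block gained CENPO (0.0258), CENPU (0.0196) and MIS12 (0.0308), where 4.54% of all genes were called lower. In siNFKB2 against siRELB it changed no call besides the 4 named with that result.

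Signs turned for 6 genes that were not called in siNFKB2 against siNS. With 1 library left out the log2 fold change ran from -0.20 to 0.083 for CENPK, -0.10 to 0.079 for CENPL, -0.22 to 0.13 for CENPQ, -0.017 to 0.48 for CENPT, -0.20 to 0.35 for PMF1 and -0.23 to 0.16 for ZWILCH. Without siNS replicate 1 all 6 turned. Without the libraries numbered 1 the value was 0.12 for CENPK, 0.060 for CENPL and 0.094 for CENPQ. With 3 libraries a group, differences of this size were within the error, and CENPP and SPC25, at under 10 CPM in every library, had the fewest counts behind them.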
